A study of Mus musculus with 8 samples.

Results

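The genes described here encode the protein components of the cytosolic ribosome, the 80S particle that translates nuclear-encoded mRNAs. They were taken by symbol, as Rpl or Rps followed by digits and at most one of the letters a, x or y, together with Rpsa, Rplp0, Rplp1, Rplp2 and Fau. Pseudogenes and the Rps6 kinases were left out. The rule found 77 of the 18501 genes in the table, 31 of them in the small (40S) and 46 in the large (60S) subunit. It passed over Rps3a1, which also encodes a ribosomal protein and is given apart. All 77 had counts high enough to be tested, among 14359 genes in all.

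RNA came from chondrocytes of rib cartilage of 10-day-old CD1 mice, released with collagenase, filtered and plated, and was sequenced as 8 libraries in 4 groups of 2. The CT mutants carry a C>T base change and are set against their own CT wild types. The CG mutants carry a mutation in the seed region of the 3p arm of miR-140, a microRNA made mainly by cartilage cells, and are set against CG wild types. Both changes are described as raising the 5p arm, whose level was not analysed here, so each mutant group models 5p excess together with whatever its base change does to the rest of the locus. The labels leave unstated whether replicate libraries are from different animals, so p-values reflect only how far these libraries spread, and that spread may be technical. In bulk RNA such as this, fewer cells of a type and less RNA per cell cannot be told apart.

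Ribosomal proteins are made in near-equal numbers, and their mRNAs are among the most abundant of any growing cell. Their mRNAs begin with a pyrimidine-rich 5′ terminal oligopyrimidine (TOP) tract, through which mTOR complex 1, acting on the RNA-binding protein LARP1, holds them in or out of polysomes. Chondrocytes secrete large amounts of collagen II and aggrecan and depend on high translation. Mouse mutations of Rpl38, Rpl24 and Rps7 and human variants of RPL13 alter the skeleton, and variants of many ribosomal protein genes cause Diamond-Blackfan anaemia in humans.

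The microRNA arm whose seed was mutated in the CG line is shown first, in its unmutated form. Direct targets of that form would pair with its seed. Sites for the mutated seed, or for the other arm of this microRNA, were not searched. The sequence is from RefSeq, GRCm38.p6, chr8:107551288-107551308, plus strand, with the seed at bases 2 to 8 in capitals.
miR-140-3p: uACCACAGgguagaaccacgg
The heptamer complementary to this seed, CTGTGGT, lay in the longest annotated 3′ UTR of 9 of the 58 ribosomal protein genes with a UTR of at least 50 bases (15.5%), against 2677 of 13881 genes (19.3%). The 9 were Rpl5, Rpl6, Rpl11, Rpl12, Rpl21, Rpl22, Rpl37, Rps10 and Rps15a. The UTRs of the ribosomal protein genes were also shorter, with a median of 264.5 bases against 1189 bases over all these genes. None of the 9 passed the test in either mutant comparison described below. Neither did any other of the 77, so this does not bear on the sites.

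Of the 11 ribosomal protein genes that passed the edgeR test between the lines, in wild types or in mutants, promoters are shown for the 9 with a listed one, from 60 bases before to 30 bases after the first listed RefSeq start on GRCm38.p6. Capitals mark a match to one of 3 motifs. CTTTCC and CTCTTT, searched on the coding strand, were the only pyrimidine tracts taken as TOP-like. CCGGAAG, a motif bound by ETS-family factors, was searched on either strand.
Rpl24, chr16:55966215-55966304, plus strand: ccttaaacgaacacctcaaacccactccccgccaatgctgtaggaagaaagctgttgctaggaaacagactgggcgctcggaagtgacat
Rps26, chr10:128626477-128626566, minus strand: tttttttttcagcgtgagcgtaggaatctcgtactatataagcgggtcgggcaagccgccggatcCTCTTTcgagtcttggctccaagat
Rps25, chr9:44407654-44407743, plus strand: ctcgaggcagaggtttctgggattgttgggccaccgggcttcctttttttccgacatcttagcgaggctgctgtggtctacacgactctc
Rps21, chr2:180257319-180257408, plus strand: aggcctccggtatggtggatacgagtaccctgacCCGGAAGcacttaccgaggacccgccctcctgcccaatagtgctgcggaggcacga
Rpl27a, chr7:109519135-109519224, plus strand: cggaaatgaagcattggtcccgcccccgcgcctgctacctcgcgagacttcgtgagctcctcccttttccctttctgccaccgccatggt
Rpl6, chr5:121204441-121204530, plus strand: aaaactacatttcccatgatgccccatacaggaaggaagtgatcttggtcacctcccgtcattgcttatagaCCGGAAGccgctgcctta
Rpl31, chr1:39367791-39367880, plus strand: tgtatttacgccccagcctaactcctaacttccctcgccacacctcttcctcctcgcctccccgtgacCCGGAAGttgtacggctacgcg
Rpl10a, chr17:28328411-28328500, plus strand: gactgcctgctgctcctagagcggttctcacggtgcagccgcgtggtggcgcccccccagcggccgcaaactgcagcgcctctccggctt
Rpl13a, chr7:45128716-45128805, minus strand: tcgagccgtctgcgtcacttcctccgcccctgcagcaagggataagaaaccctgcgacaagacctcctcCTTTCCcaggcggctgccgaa
The first 7 belong to genes that passed as higher in the CT line, all 7 of them between wild types, and the last 2 to genes that passed as lower in it between mutants. The window of Rps26 held CTCTTT, those of Rps21, Rpl6 and Rpl31 held CCGGAAG and that of Rpl13a held CTTTCC, while those of Rpl24, Rps25, Rpl27a and Rpl10a held none of the 3. Of the 57 ribosomal protein genes with a listed promoter, 18 (31.6%) held at least one of the pyrimidine tracts and 12 (21.1%) held CCGGAAG. Over 27025 listed promoters the shares were 7.2% and 5.4%. A match is a run of letters in this window and not a measured site. Other pyrimidine runs, such as those in the windows of Rps25 and Rpl27a, were not counted, so no match does not mean no tract.

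Total counts per library ran from 26536844 to 28678637, and a ribosomal protein gene had between 264 and 61135 counts in a library. The lines differed in much besides ribosomal protein genes, with 33.7% of all genes past the threshold between the wild types. Cartilage markers were abundant in all 8 libraries, with Col2a1, Acan, Sox9 and 7 others summing to 40225 to 59938 CPM in the CT line and 30876 to 53233 CPM in the CG line. CPM are counts scaled to a common library size after adjustment by the TMM method. The 6 erythroid markers, globins among them, summed to 796 to 2686 CPM in the CT line and 1.75 to 8.74 CPM in the CG line. The 8 neutrophil markers summed to 241 to 377 CPM in the CT line and 2179 to 4432 CPM in the CG line, but the sum in the CG line was nearly all Lcn2, which cells other than neutrophils also make. Without Lcn2, set aside after its values were seen, the other 7 summed to 61.8 to 202 CPM in the CT line and 9.27 to 21.7 CPM in the CG line, and between wild types 5 of the 8 markers passed as higher in the CT line and 1, Lcn2, as lower. The 8 markers of proliferating cells summed to 249 to 291 CPM in the CT line and 134 to 171 CPM in the CG line. No marker was at 0 in all 8 libraries, and the globin gene Hbb-b2 was at 0 in all 4 CG libraries. The part of these differences in the line comparisons of ribosomal protein genes was not tested, and line, litter and batch cannot be told apart.

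The 77 genes together took 3.44% and 3.70% of all counts in CT mutants, against 3.58% and 4.13% in CT wild types. They took 3.02% and 3.12% in CG mutants, against 3.19% and 3.23% in CG wild types. In these shares all 4 CT libraries lay above all 4 CG libraries, whereas mutants and wild types overlapped in the CT line. The shares are of total counts, without the TMM adjustment. After that adjustment the lines overlapped in the median log2 CPM of the 77 genes. The first CT mutant was lowest of all 8 at 8.45, and the second, at 8.58, lay within the CG range of 8.52 to 8.59. Both CT wild types lay above all CG libraries. The group means were 3.57% ± 0.18 in CT mutants, 3.85% ± 0.39 in CT wild types, 3.07% ± 0.07 in CG mutants and 3.21% ± 0.03 in CG wild types (SD, n = 2 each). The second CT wild-type library stood highest of all 8. As a share of summed FPKM, which scales by gene length, the 77 genes took 12.4% to 14.3% in the CT line and 10.7% to 11.2% in the CG line.

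By FPKM, which allows levels of different genes to be compared, most members lay within a narrow band, and the order was led by Rpl41, Rplp0, Rplp1 and Rps2. Rpl41, which encodes a peptide of the 60S subunit made up mostly of basic residues, averaged 1792 FPKM over the 8 libraries, with a range of 1522 to 2279.9 FPKM. Rplp0 and Rplp1, components of the stalk that recruits elongation factors, averaged 1608 FPKM (1447 to 1765) and 1600.0 FPKM (1275 to 2143). Rps2, a 40S protein near the mRNA entry channel, averaged 1383 FPKM (1165 to 1670.1). These ranges overlap one another, so the first 4 places are not separated by the spread over libraries.

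The lowest members by FPKM were Rps6, Rpl29, Rps15a and Rpl22. Rps6, the 40S protein phosphorylated by S6 kinases, averaged 13.3 FPKM (9.51 to 21.8), and Rpl29, a 60S protein, 13.6 FPKM (11.7 to 16.3). Rps15a averaged 64.3 FPKM (55.7 to 74.2) and Rpl22, an RNA-binding 60S protein, 74.2 FPKM (64.3 to 94). Rps6 and Rpl29 overlapped each other and lay below all other members in every library. The order depends on the gene length used: by CPM the first 4 were Rplp0, Rpsa, Rps2 and Rpl4, and Rps15a moved from place 75 to place 47. Over the 77 genes the ranks by mean FPKM and mean CPM had a Spearman rho of 0.67, a description of the same libraries on 2 scales.

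**Figure D1:**
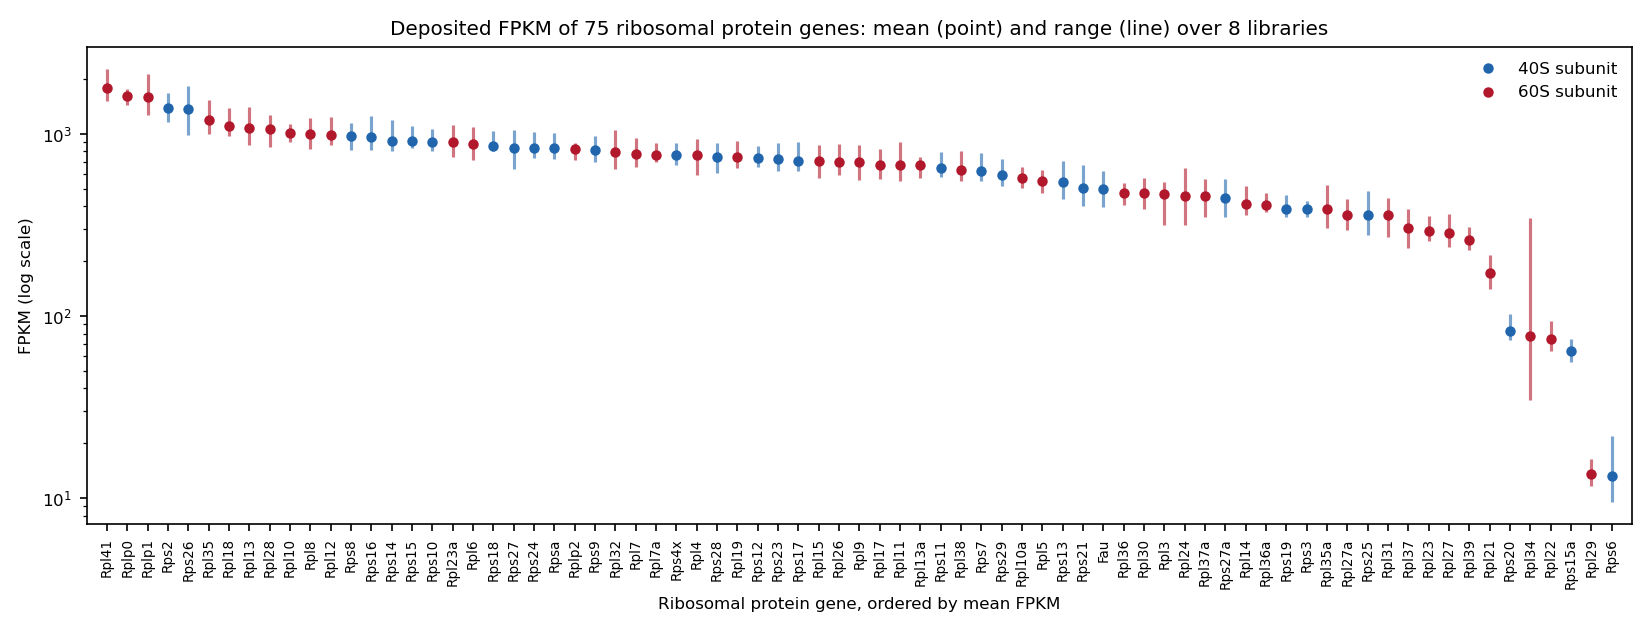
Mean FPKM of 75 of the 77 genes over 8 libraries (point) with the lowest and highest library (line), on a log axis, ordered from high to low and coloured by subunit. Most genes form a continuous slope, Rps6 and Rpl29 lie far below it at means of 13.3 and 13.6 FPKM, and the line of Rpl34 spans 34.3 to 346 FPKM.

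The low values of Rps6 and Rpl29, and the wide range of Rpl34, sit beside annotated near-identical copies. Ribosomal protein genes have many processed pseudogenes: 65 of the 77 had at least 1 other annotated transcript with 97% or more identity over at least 80% of the coding sequence, and 9 had such a copy among the rows of the table. Rps6 itself had 339 to 814 counts per library, whereas its copy LOC105244208 had 16889 to 25641. Rpl29 had 264 to 363 counts and its copy Gm8210 had 9669 to 14266. Rpl34, a 60S protein, had 429 to 611 counts in 7 libraries and 3782 in the second CG wild-type library, where its copy Rpl34-ps1 had 3477 counts against 6140 to 9260 in the other 7. In counting, reads can fall to either a gene or its copy, so the levels of these 3 genes as listed are uncertain. Summed with its copies, Rpl34 stood at 279.8 and 278 CPM in CT mutants and 278 and 339 CPM in CT wild types. The sum was 277 and 261 CPM in CG mutants and 259.7 and 291 CPM in CG wild types, and the second CG wild type no longer stood apart.

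The first comparison asks whether the 3p seed mutation changed ribosomal protein mRNAs. None of the 77 genes passed the edgeR quasi-likelihood test at an adjusted p of 0.05, where 0.00696% of all genes (1 gene) did. At an unadjusted p under 0.05 there were 3 of the 77, against 11.4% of all genes tested. DESeq2 called 1 of the 77, Rpl3, where it called 213 genes (1.88%) in all. The median log2 fold change over the 77 was -0.02 and that over all genes was near 0, with 35 of the 77 above 0, against 50.6% of all genes, and 42 below. The interquartile range of all genes was -0.16 to 0.17. Both CG mutants lay above both CG wild types in 9 of the 77 (11.7%), against 23.2% of all genes, and below them in 22 (28.6%), against 22.5%.

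Rpl3, which encodes the 60S protein that reaches towards the peptidyl transferase centre, had the smallest p of the family. It stood at 788 and 658 CPM in CG mutants, compared with 427 and 509 in CG wild types. In the CT line it stood at 585 and 625 CPM in mutants, against 578 and 655 CPM in wild types. Both CG mutants lay above both CG wild types, and the CG wild types were the lowest of the 8 libraries. The log2 fold change in the CG line was 0.63 ± 0.14 (SE) (edgeR p 0.00163, adjusted p 0.225). DESeq2 gave a log2 fold change of 0.63 with an adjusted p of 0.00195. In the authors' deposited table the log2 value was also 0.63, with a q-value of 0.0154. The log2 fold change was 0.76 without the second CG mutant and 0.49 without the first. The first CG mutant, where Rpl3 was highest, also stood apart from the other CG libraries in cell markers. Its cartilage markers summed to 53233 CPM, against 30876 CPM in the second CG mutant and 32904 and 31898 CPM in CG wild types. The part of this in the level of Rpl3 was not tested. Between wild types of the 2 lines Rpl3 had a log2 fold change of 0.40 ± 0.13 (adjusted p 0.0532). Of the 6 genes next to Rpl3 on its chromosome none passed either, but Apobec3, 3 places away, had a log2 fold change of 0.58 ± 0.21 (edgeR p 0.0231, adjusted p 0.363), close to that of Rpl3. The other 5 lay between -0.49 and 0.11.

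The next genes upward were Rpl10a, whose 60S protein lies at the L1 stalk, and Rpl12, at the base of the P stalk. Rpl10a stood at 570.0 and 464 CPM in CG mutants, compared with 421 and 455 in CG wild types, which gave a log2 fold change of 0.24 ± 0.12 (edgeR adjusted p 0.502). Rpl12 stood at 587 and 552 CPM in CG mutants, compared with 491 and 514 in CG wild types, which gave a log2 fold change of 0.18 ± 0.11. In neither gene did the CG mutant and wild-type libraries overlap, although the differences did not pass.

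Downward, Rpl34 and Rps27 were among the genes with the smallest p-values. Rpl34 had a log2 fold change of -2.14 ± 0.79 that rested on the second CG wild-type library: it was 0.21 without that library, -2.99 (adjusted p 0.00626) without the other CG wild type, and -0.03 when copies were summed. Rps27, a 40S protein with a zinc finger, stood at 186 and 188 CPM in CG mutants, compared with 212 and 224 in CG wild types. Its log2 fold change was -0.22 ± 0.08, with an adjusted p of 0.376 by edgeR. The libraries of Rps27 did not overlap between CG mutants and wild types.

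The second comparison sets the C>T change against its wild types. Again none of the 77 genes passed the edgeR test, where 0.00696% of all genes (1 gene) did, and neither DESeq2 nor limma called any. At an unadjusted p under 0.05 there were 5 of the 77 (6.49%), against 5.11% of all genes. The log2 fold changes were nevertheless nearly all on one side: 74 of 77 were below 0 and 3 above, while 49.4% of all genes were above 0. Their median was -0.14, and that of all genes was near 0. In 42 of the 77 (54.5%) both mutants lay below both wild types, as in 16.3% of all genes, and in none did both lie above, as in 17.2% of all genes. These genes vary together from library to library, so 74 genes on one side are far fewer than 74 separate observations.

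One library weighs on this. The second CT wild type, which had the highest share of ribosomal protein counts, also had the highest CPM of the 8 libraries for 60 of the 77 genes. Without it the median log2 fold change was -0.06, and without the first CT wild type it was -0.22. Scaled by the summed counts of the 77 genes, the median was 0.01, as that scaling makes it by construction. Most markers of blood cells also had log2 fold changes below 0, and none passed the test. Erythroid markers summed to 796 and 1389 CPM in CT mutants, compared with 2686 and 1576 in CT wild types. The neutrophil markers other than Lcn2 summed to 61.8 and 78.1 CPM in CT mutants, compared with 202 and 141 in CT wild types, and all 7 had a log2 fold change below 0, among them Camp at -1.27 (edgeR p 9.5e-05, adjusted p 0.272). Of the 9 macrophage and leukocyte markers tested 8 were below 0, such as Ptprc at -1.24, and Cd14 was above 0 at 0.27. The summed level of the 10 listed overlapped, at 370 and 341 CPM in CT mutants, compared with 361 and 323 in CT wild types. That sum was mostly Cd14, at 315 and 276 CPM in CT mutants, compared with 249 and 241 in CT wild types. The part of these markers in the result was not tested.

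Rps27 had the smallest p in this comparison, at 197 and 193 CPM in CT mutants, compared with 254 and 242 in CT wild types. The log2 fold change was -0.35 ± 0.08 (edgeR p 0.0027, adjusted p 0.958). Fau, which encodes a ubiquitin-like protein fused to a 40S protein, stood at 222 and 239.6 CPM in CT mutants, compared with 264 and 289 in CT wild types, which gave a log2 fold change of -0.26 ± 0.09. In both genes both CT mutants lay below both CT wild types. Rpl23 at -0.24 and Rpl37a at -0.23, both 60S proteins named after their values were seen, also had an unadjusted p under 0.05.

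The 3 genes above 0 were Rpl22, Rpl29 and Rps6, each with mutant and wild-type libraries that overlapped. Rpl22 had a log2 fold change of 0.10 ± 0.12, Rpl29 of 0.12 ± 0.15 and Rps6 of 0.08 ± 0.29. The values of Rpl29 and Rps6 turned to -0.08 and -0.04 when their copies were summed, and that of Rpl22 to -0.03 without the second CT mutant. By subunit, 1 of 31 genes of the 40S subunit was above 0, with a median of -0.16, and 2 of 46 of the 60S subunit, with a median of -0.11.

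The balance of the subunits was lower in mutants of both lines. Summed counts of the 40S genes over summed counts of the 60S genes were 0.622 and 0.627 in CG mutants, against 0.645 and 0.641 in CG wild types. They were 0.635 and 0.629 in CT mutants, against 0.642 and 0.642 in CT wild types. The mutants lay below the wild types without overlap in each line, by 2.82% of the ratio in the CG line and 1.5% in the CT line. Without Rpl3, which adds to the 60S sum in CG mutants, the differences were 1.57% and 1.28%, and with copies summed they were 3.11% and 1.16%. On FPKM they were 3.42% and 2.3%. The ratio was chosen after its values were seen, 2 libraries against 2 cannot give a small exact p, and no test is given. On the mean log2 CPM of 40S genes minus that of 60S genes, where each gene weighs the same, the mutants were also lower. In each line the nearest mutant and wild-type libraries lay close together. The values were 0.006 and -0.048 in CT mutants, against 0.032 and 0.009 in CT wild types. They were -0.026 and -0.024 in CG mutants, against 0.058 and -0.016 in CG wild types. This mean includes Rps6, Rpl29 and Rpl34, whose levels are uncertain.

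Whether the mutations of the 2 lines acted differently was tested as the difference of the mutant effects. None of the 77 genes passed the edgeR test, where 0.0209% of all genes (3 genes, 1 of them higher, 0.00696%, and 2 lower, 0.0139%) did, and DESeq2 and limma called none. At an unadjusted p under 0.05 there were 3, against 4.78% of all genes. The median difference was 0.11, with 70 of 77 above 0, against 51.6% of all genes. It was 0.03 without the second CT wild type and 0.19 without the first.

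Rpl3 had the smallest p, at 0.66 ± 0.19 (edgeR p 0.00881, adjusted p 0.922). Rpl10a had 0.43 ± 0.17 and Rpl12 0.42 ± 0.16, with the same adjusted p of 0.967. In Rpl10a and Rpl12 both mutants lay above both wild types in the CG line and below them in the CT line. Rpl10a stood at 361 and 393 CPM in CT mutants, compared with 416 and 446 in CT wild types, and Rpl12 at 466 and 530.1 CPM in CT mutants, compared with 547 and 629 in CT wild types. Below 0 the smallest p-values were those of Rpl34, at -1.98 ± 1.10 and 0.11 with copies summed, Rps6, at -0.32 ± 0.42, and Rps15a, at -0.11 ± 0.17. That of Rps15a was 0.05 without the second CG wild type, and none of the 3 passed.

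**Figure D2:**
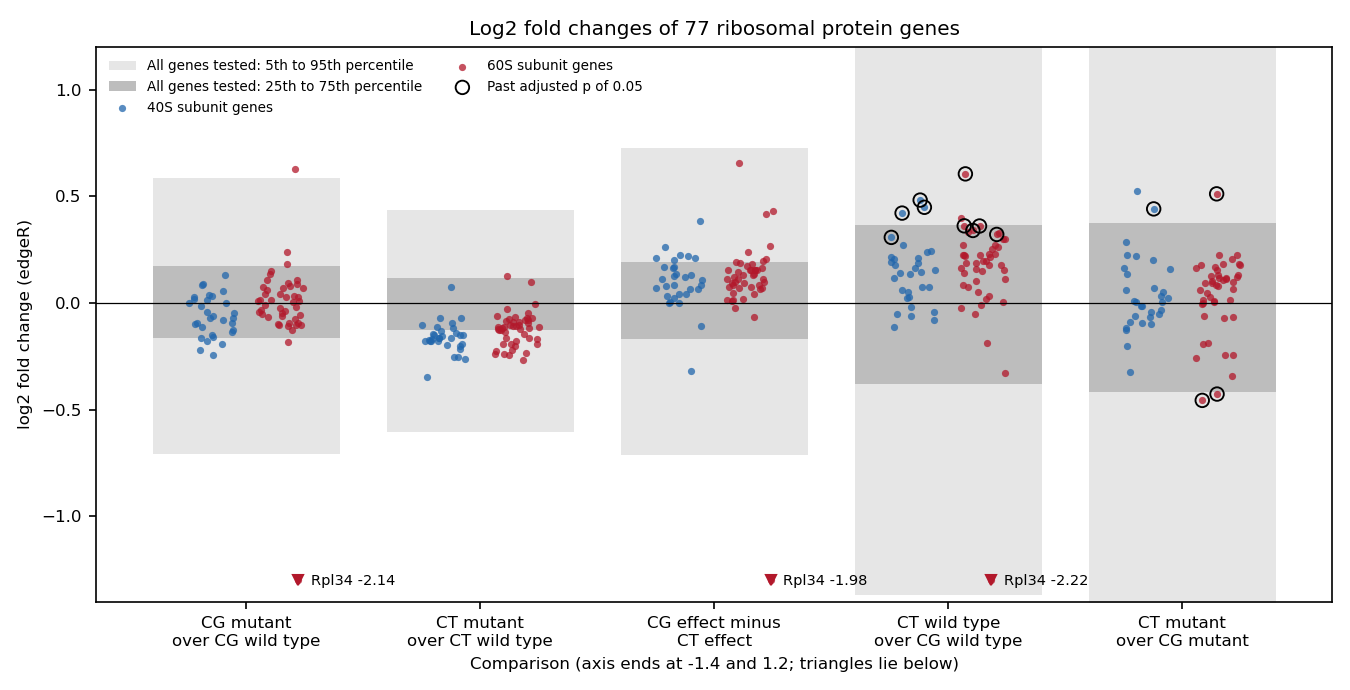
Log2 fold changes from the edgeR fit for the 77 genes in each comparison, by subunit, over grey bands for all genes tested; rings mark an adjusted p under 0.05 and triangles mark Rpl34 below the axis. In the 2 mutant comparisons no gene is ringed and the CT points lie almost all below 0, while between the wild types 9 genes are ringed above 0, and the outer grey bands of the line comparisons run past the top of the axis.

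The CT and CG lines were then compared in wild types alone. Here 9 of the 77 genes rose in CT wild types and none fell, which is 11.7%, against 33.7% of all genes (17% higher and 16.8% lower). The median log2 fold change was 0.18, and that of all genes was near 0, with 65 of 77 above 0, against 50.2% of all genes. At an unadjusted p under 0.05 there were 24 of the 77 (31.2%), against 45.1% of all genes. In 49 of the 77 (63.6%) both CT wild types lay above both CG wild types, as in 35.7% of all genes, and in 3 (3.9%) below, as in 35.5%. Scaling matters: with library totals alone 31 rose and none fell, against 34% of all genes called, but that choice shifts the median of all genes by 0.13. Relative to the summed family 4 rose and 1 fell, against 30.8% of all genes called. The median of the 77 was 0.16 without the first CG wild type, 0.19 without the second and 0.11 without the second CT wild type. In these fits fewer genes passed, both in the family and over all genes. DESeq2 called 12 higher and 1 lower, where it called 30.6% of all genes in either direction.

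Of the genes that rose, Rpl24 differed most. It encodes a 60S protein that bridges to the 40S subunit, and its mutation in mice causes a kinked tail and belly spot. It stood at 296 and 354 CPM in CT wild types, against 222 and 205 CPM in CG wild types. The mutants stood at 297 and 314 CPM in CT mutants, compared with 212 and 217 in CG mutants. All 4 CT libraries lay above all 4 CG libraries. The log2 fold change was 0.61 ± 0.11 between wild types (edgeR adjusted p 0.00503) and 0.51 ± 0.11 between mutants (adjusted p 0.00854). Between mutants the adjusted p was 0.0558 without the second CT mutant, the only left-out library with which the call was lost in either comparison.

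Rps26, a 40S protein at the mRNA exit channel and a human Diamond-Blackfan anaemia gene, was next. It stood at 555 and 608 CPM in CT wild types, against 408 and 424 CPM in CG wild types. It stood at 509.7 and 551 CPM in CT mutants, compared with 398 and 383 in CG mutants. The lines did not overlap, and the log2 fold changes were 0.48 ± 0.10 (edgeR adjusted p 0.00785) and 0.44 ± 0.10 (adjusted p 0.00984). The adjusted p between wild types was 0.0617 without the first CG wild type, and between mutants 0.0688 without the second CT mutant.

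Rps25, a 40S protein that some viral internal ribosome entry sites need, stood at 228 and 269 CPM in CT wild types, against 184 and 179.7 CPM in CG wild types, which gave a log2 fold change of 0.45 ± 0.10 (edgeR adjusted p 0.0142). Rps21, another 40S protein, stood at 164 and 187 CPM in CT wild types, compared with 127 and 136 in CG wild types, with 0.42 ± 0.10 (adjusted p 0.0173). Rpl27a, a 60S protein whose mutation in mice causes the sooty foot ataxia phenotype, stood at 409 and 419 CPM in CT wild types, compared with 312 and 332 in CG wild types, with 0.36 ± 0.09 (adjusted p 0.0179). In these 3 genes the wild types of the lines did not overlap. Each of the 3 no longer passed when the first or second CG wild type or the second CT wild type was left out, with adjusted p-values of 0.0707 to 0.0887 for Rps25, 0.0658 to 0.114 for Rps21 and 0.0671 to 0.121 for Rpl27a.

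The other 4 that rose were Rps27a, Rpl31, Rpl6 and Rpl21. Rps27a, made as a fusion with ubiquitin, had a log2 fold change of 0.31 ± 0.09 (edgeR adjusted p 0.0304) and Rpl31, near the exit of the peptide tunnel, 0.32 ± 0.10 (0.0337). Rpl6 had 0.34 ± 0.11 (0.0452) and Rpl21 0.36 ± 0.12 (0.0471). Rpl21 has copies among the rows of the table. In the mutants none of these 4 passed, with log2 fold changes of 0.22, 0.21, 0.18 and 0.12, and no test of the difference between the comparisons passed for them.

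Below 0 no gene passed between the wild types. The smallest p-values belonged to Rpl34, at -2.22 ± 0.79 (edgeR adjusted p 0.062) and 0.16 with copies summed, Rpl13a and Rplp0. Rpl13a, a 60S protein known in human monocytes for a second role in silencing inflammatory mRNAs, stood at 521 and 606 CPM in CT wild types, against 684 and 733 CPM in CG wild types, which gave a log2 fold change of -0.33 ± 0.12 (adjusted p 0.0634). Its lines did not overlap. Rplp0 stood at 1897 and 2078 CPM in CT wild types, compared with 2157 and 2369 in CG wild types, with -0.19 ± 0.12.

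The same difference was measured in the 4 mutant libraries, which the wild-type comparison does not use. Here 2 of the 77 genes rose in CT mutants and 2 fell, 5.19% in all, against 36.1% of all genes. The median was 0.05, with 50 of 77 above 0, against 49.2% of all genes. In 28 (36.4%) both CT mutants lay above both CG mutants, as in 35.5% of all genes, and in 13 (16.9%) below, as in 35.6%. With library totals alone, which shift the median of all genes by 0.20, 26 rose and none fell, against 39.6% of all genes called. Relative to the summed family 2 rose and 3 fell, against 31.5% of all genes called. The direction of the family median held under every scaling tried, from 0.04 to 0.27, and was -0.02 without the second CG mutant.

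The 2 that rose were Rpl24 and Rps26, and the 2 that fell were Rpl10a and Rpl13a. Rpl10a stood at 361 and 393 CPM in CT mutants, compared with 570.0 and 464 in CG mutants, a log2 fold change of -0.46 ± 0.12 (edgeR adjusted p 0.0211). Between wild types it was -0.02 ± 0.12 (adjusted p 0.897). Rpl13a stood at 559.6 and 506 CPM in CT mutants, compared with 756 and 677 in CG mutants, a log2 fold change of -0.43 ± 0.12 (adjusted p 0.0246). Both calls were lost without the first CG mutant or either CT mutant, with adjusted p-values of 0.0625 to 0.124 for Rpl10a and 0.0623 to 0.142 for Rpl13a. They were also lost with library totals alone, at 0.116 and 0.18. Rps25, at 0.28 ± 0.10 (0.0661), and Rplp0, at -0.34 ± 0.12 (0.0584), did not pass. Rplp0 stood at 1720.1 and 1757 CPM in CT mutants, compared with 2332 and 2072 in CG mutants. The mutants of the 2 lines did not overlap, while 1 CT wild type stood just above 1 CG mutant.

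**Figure D3:**
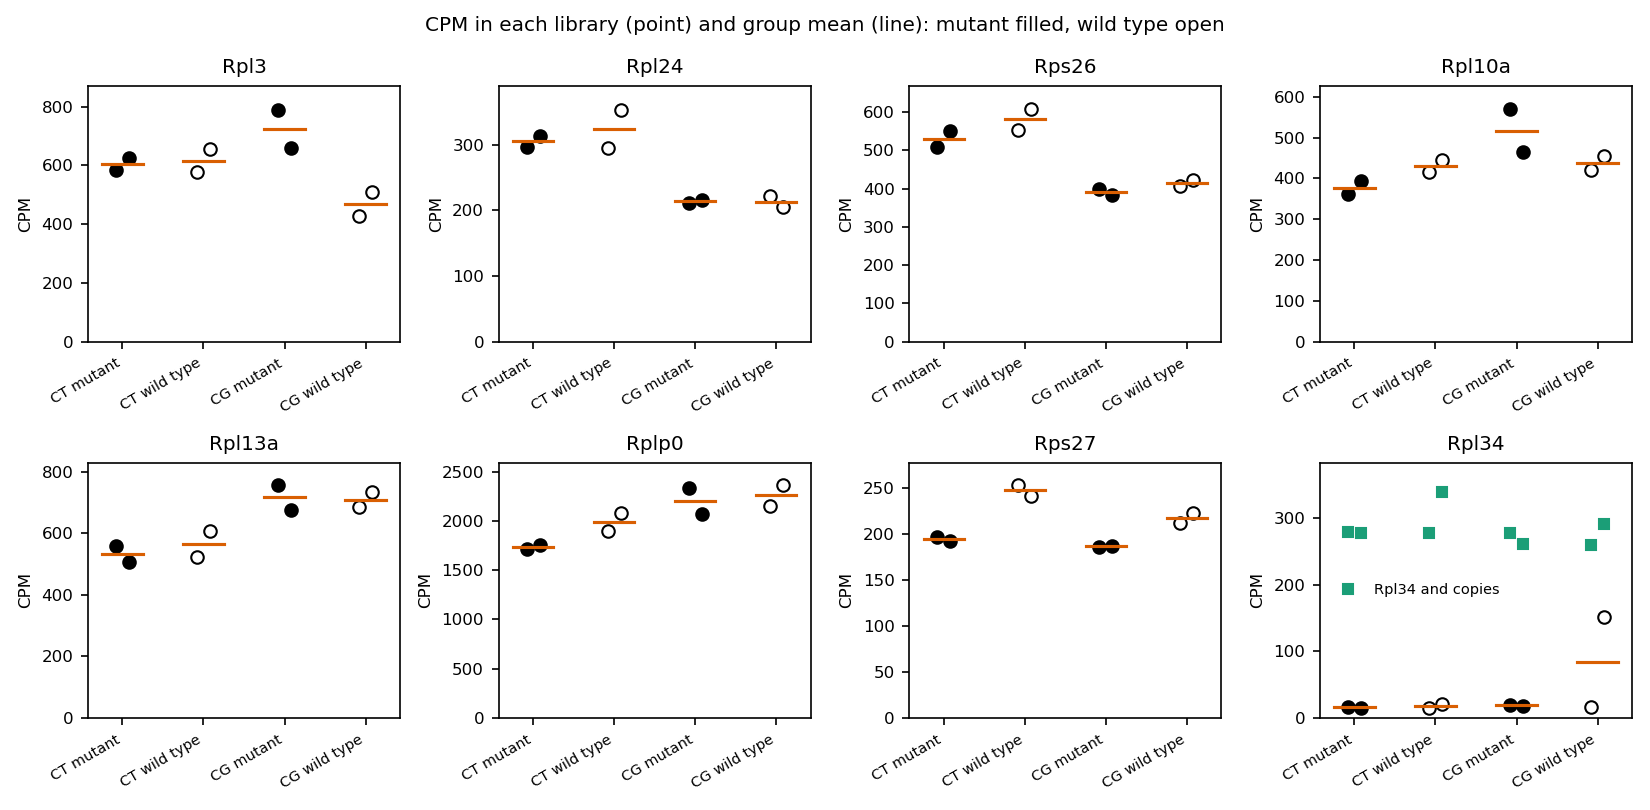
CPM of 8 genes in each library (points, mutants filled and wild types open) with the mean of each group (line), and for Rpl34 also the sum with its copies (squares). Rpl24 and Rps26 are higher and Rpl13a is lower in the CT line, Rpl3 is lowest in the CG wild types, and the single high CG wild-type point of Rpl34 is absent from the sums.

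Across the 77 genes the 2 line differences, which share no library, correlated with r = 0.51 (Pearson) and rho = 0.75 (Spearman). Without Rpl34 r was 0.73. The sign was the same in 58 genes (75.3%), against 84.3% of all genes tested, where r was 0.82. These are descriptions across genes of the same libraries, which are not independent replicates.

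**Figure D4:**
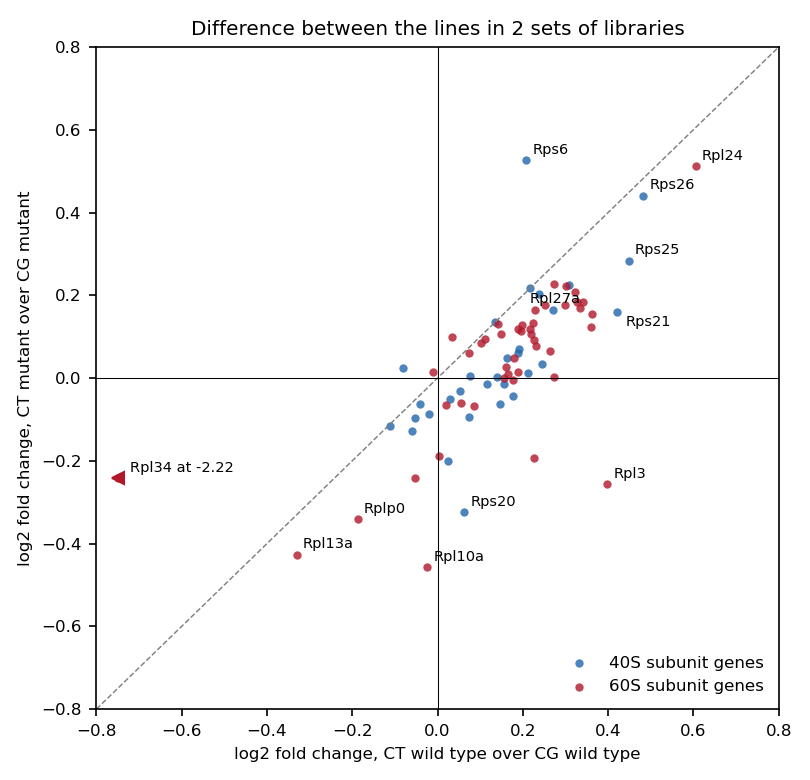
Log2 fold change of each of the 77 genes between CT and CG mutants (vertical) against that between CT and CG wild types (horizontal), with the line of equality dashed and Rpl34 drawn at the left edge. Rpl24, Rps26 and Rps25 lie at the upper right, Rpl13a and Rplp0 at the lower left, and Rpl3 and Rpl10a lie well below the line of equality.

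To separate single genes from the family as a whole, each gene's log2 CPM was taken relative to the median of the 77 in the same library. The 4 CT and 4 CG libraries then did not overlap in 28 of the 77 genes (36.4%), against 42.4% of all genes on the same scale, so lack of overlap was no more frequent here than elsewhere. Of the 28, 24 were higher in the CT line (31.2% of the 77, against 20.2% of all genes) and 4 lower (5.19%, against 22.3%). The largest differences, averaged over mutants and wild types, were 0.53 for Rpl24, 0.43 for Rps26 and 0.34 for Rps25, followed by 0.29 for Rps6, whose lines overlapped and whose level is uncertain. The smallest were -0.89 for Rpl34, which rests on 1 library, -0.41 for Rpl13a, -0.29 for Rplp0 and -0.26 for Rpl10a.

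**Figure D5:**
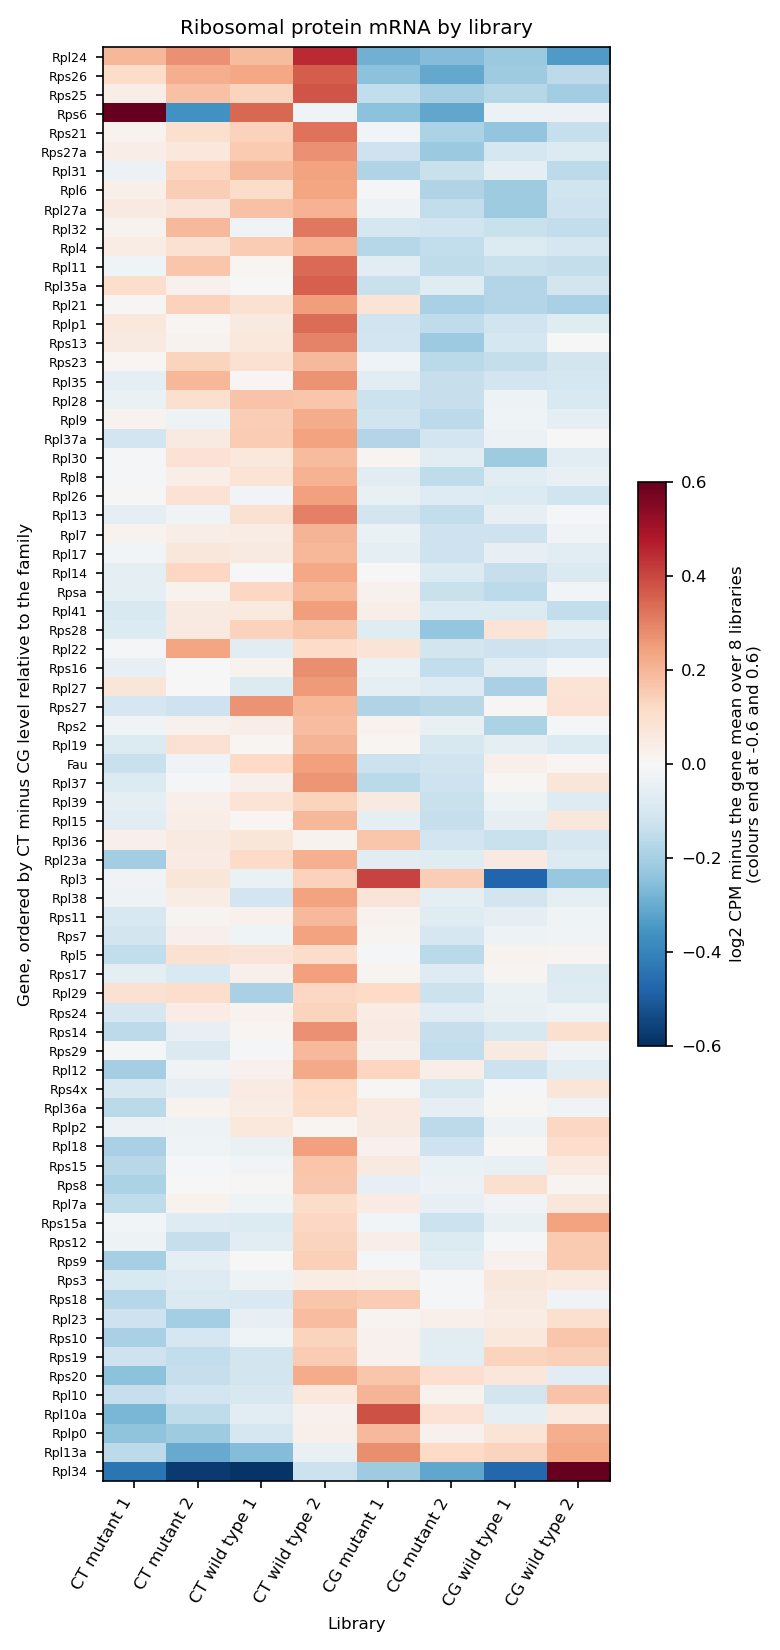
Log2 CPM of 75 of the 77 genes in each library (columns) minus the gene's mean over the 8, ordered by the difference between the lines relative to the family; red is higher, blue is lower, and colours end at -0.6 and 0.6. The column of the second CT wild type is red for nearly all genes, genes at the top are red in the CT and blue in the CG libraries, and Rpl3 is red in CG mutants and blue in CG wild types.

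By role, the proteins of the P stalk gave no call. Of Rplp0, Rplp1, Rplp2 and Rpl12, none passed in any comparison, and the log2 fold changes between wild types were -0.19, 0.30, -0.01 and 0.23. Rplp1 stood at 616 and 748 CPM in CT wild types, against 546 and 564 CPM in CG wild types, and Rplp2 at 301 and 291 CPM in CT wild types, compared with 283 and 314 in CG wild types. In the CT mutant comparison all 4 were below 0, from -0.24 to -0.07, where only 3 of the 77 were above 0. The wild-type comparison had 2 of 4 above 0, where the family had 65 of 77.

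Rpl5 and Rpl11 form with 5S rRNA the particle that binds the p53 regulator MDM2 when assembly stalls. Rpl5 had log2 fold changes of -0.10 ± 0.11 in the CG line and -0.12 ± 0.11 in the CT line, and Rpl11 of 0.03 ± 0.13 and -0.11 ± 0.13. Between wild types they were 0.07 and 0.33, and neither passed in any comparison. Of the 8 proteins at or near the exit of the peptide tunnel, 1, Rpl31, rose between wild types, with all 8 above 0 and a median of 0.18. Of 18 genes whose human counterparts cause Diamond-Blackfan anaemia, Rps26 and Rpl31 rose between wild types and Rps26 between mutants, with medians of 0.14 and 0.07. In the whole family 65 of 77 were above 0 between wild types and 11.7% rose, against 17% of all genes. Between mutants 2.6% of the family rose, against 17.9% of all genes. The family medians were 0.18 between wild types and 0.05 between mutants.

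The skeletal genes were led by Rpl24. Rpl38, whose loss in Tail-short mice alters the vertebrae, stood at 175 and 159 CPM in CG mutants, compared with 154 and 159.7 in CG wild types. In the CT line the values were 163 and 171 CPM in CT mutants, compared with 153 and 196 in CT wild types. Its log2 fold changes were 0.09 ± 0.12 and -0.07 ± 0.12, and the libraries overlapped in both lines. Rps7 had -0.01 ± 0.12 and -0.15 ± 0.12, and Rpl13 -0.10 ± 0.10 and -0.24 ± 0.10. For Rpl13 both CT mutants, at 708 and 724 CPM, lay below both CT wild types, at 783 and 906 CPM, without passing the test.

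Among other members named for their roles, Rpsa, which doubles as a laminin-binding surface protein, stood at 1413 and 1489.6 CPM in CT mutants, compared with 1600.3 and 1686 in CT wild types. It stood at 1498 and 1339 CPM in CG mutants, compared with 1319.7 and 1452 in CG wild types. The log2 fold changes were -0.18 ± 0.11 and 0.03 ± 0.11. Rps4x, an X-linked 40S gene, stood at 601 and 622 CPM in CT mutants, compared with 665 and 698 in CT wild types. In the CG line the values were 646 and 605 CPM in CG mutants, compared with 639 and 676 in CG wild types. Fau had a log2 fold change of 0.16 ± 0.09 between wild types and Rps27a of -0.08 ± 0.09 and -0.16 ± 0.09 in the CG and CT mutant comparisons, none of which passed.

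Spread and size of change were set beside those of other genes. Between the libraries of a group the median SD of log2 CPM was 0.10 for the 77 genes. It was 0.11 for 2243 other genes and 0.16 for all genes tested. The 2243 were at least as abundant as the least abundant of the 77, with Rpl34, Rps6 and Rpl29 set aside. They were not otherwise matched to the 77 in abundance. Between wild types the median size of the log2 fold change was 0.19, 0.27 and 0.37 in these sets, and 11.7%, 41.6% and 33.7% of their genes passed. In the CG mutant comparison the median sizes were 0.07, 0.10 and 0.17. In the CT mutant comparison they were 0.14, 0.08 and 0.12.

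Genes around the ribosome were examined as lists. For comparison, 17% of all genes tested were higher and 16.8% lower between wild types, and 17.9% higher and 18.2% lower between mutants. Of 18 translation factors and other TOP mRNAs tested, 8 rose and none fell between wild types, with a median of 0.32, and 8 rose and none fell between mutants, with a median of 0.25. Hnrnpa1, an RNA-binding protein, stood at 690.1 and 752 CPM in CT wild types, against 489 and 426 CPM in CG wild types, which gave a log2 fold change of 0.66 ± 0.11 (edgeR adjusted p 0.00434). The initiation factor subunits Eif3l and Eif3e had 0.42 ± 0.08 (0.00694) and 0.52 ± 0.10 (0.00752). None of the 18 passed in either mutant comparison.

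Of 18 genes of mTOR complex 1, its upstream and downstream partners, LARP1 and MYC, 1 rose and 6 fell between wild types and 3 rose and 9 fell between mutants. Over all genes, 17% rose and 16.8% fell between wild types, and 17.9% rose and 18.2% fell between mutants. Mlst8, a subunit of both mTOR complexes, had a log2 fold change of -0.78 ± 0.10 (edgeR adjusted p 0.00134), Akt1s1, an inhibitor of the complex, -0.56 ± 0.11 (0.00613) and Myc -0.76 ± 0.14 (0.00633). These are mRNA levels and do not report the activity of the complex. Of 15 genes of RNA polymerase I and its factors, 2 fell and none rose between wild types, Polr1a at -0.31 ± 0.09 and Taf1d at -0.31 ± 0.09, and 2 fell between mutants. Of 49 ribosome assembly factors, 4 rose and 3 fell between wild types, led by Gnl2 at 0.39 ± 0.08, Imp3 at -0.56 ± 0.11 and Rrp12 at -0.49 ± 0.10.

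The 78 mitochondrial ribosomal protein genes, which encode a separate ribosome, had 13 higher and 1 lower between wild types and 8 higher and 5 lower between mutants. The shares of all genes were 17% higher and 16.8% lower between wild types, and 17.9% higher and 18.2% lower between mutants. Mrps2 had a log2 fold change of 0.68 ± 0.09, Mrpl17 of 0.70 ± 0.12 and Mrpl33 of -0.55 ± 0.12. In the CG mutant comparison none passed, 62 of 78 were above 0 and the median was 0.11, where the cytosolic family had 35 of 77 and -0.02. Of all genes 50.6% were above 0 in that comparison. Of 7 tested family genes outside the symbol pattern, Rpl22l1, a divergent copy of Rpl22, rose between wild types at 0.59 ± 0.14 (0.016), and Rsl24d1, whose yeast counterpart holds the place of Rpl24 during 60S assembly, at 0.29 ± 0.09 (0.0318). Rps3a1 had 0.28 ± 0.10 and did not pass. The 7 non-coding small nucleolar RNA hosts listed were not analysed here.

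The authors' deposited table of comparisons lists 9 of the 77 genes among its 2655, and 8 of them are among the 9 that rose between wild types here. In that table Rpl24 has log2 values of 0.61 between wild types and 0.52 between mutants, with q-values of 9.49e-05 and 0.000187. Rps26 has 0.49 and 0.45 in the authors' deposited table, with q-values of 0.000631 and 0.00226.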

How the data were processed

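RNA-seq of 8 libraries was analysed. Per the submitters' processing notes, reads were aligned with HISAT2 2.0.4 and the build is mm9. For counting, the tool and annotation: not given in the sources used here. As deposited by the authors, the tables hold estimated counts and FPKM per gene, and a table of the authors' comparisons with log2 ratios and q-values. Expected counts were rounded; 20 of the 77 genes had values that were not whole. The members and lists were chosen with earlier results of these data known. Genes named in the text were those past the threshold with the largest changes, the 3 smallest p-values in a direction with fewer calls, and a fixed set chosen by role. Some genes that this rule takes in are not reported here by name; they stay in all counts and medians.

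Genes were filtered with filterByExpr, scaled by TMM and tested with the quasi-likelihood F test of edgeR 4.0.16 in R 4.3.3, fitting 4 group means over 8 libraries (4 residual degrees of freedom), with Benjamini-Hochberg adjustment over 14359 genes and a threshold of 0.05. Standard errors were derived from the fold change and its F statistic. On simulated counts for the CG mutant comparison, over 14175 genes, 62% of 2-fold and 17% of 1.5-fold changes were recovered. For the wild-type line comparison, over 14185 genes, the shares were 67% and 15%. False calls numbered 8 and 5 in the 2 simulations. Each simulation changed 100 genes by each fold, drawn at random over all abundances, whereas 33.7% of all genes passed between the real wild types. These shares therefore do not give the sensitivity for the 77 genes. Alternatives were other scalings, no filter, DESeq2 1.42.0, limma 3.58.1 on log2(FPKM + 1) and log2(FPKM + 0.1), a replicate block, only the groups compared, and each library left out. Summing near-identical copies, found with BLAST 2.17.0 among GENCODE transcripts on GRCm38, was added after seeing the data. Total counts of 26536844 to 28678637 set the precision, and errors quoted cover only these libraries.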

Additional observations from a re-analysis of the deposited data

How the results depend on the processing

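Among the named genes, 325 values under alternatives other than leaving out a library kept their direction and side of the threshold, 9 newly passed, 8 no longer passed and 4 reversed; with a library left out the numbers were 222, 7, 18 and 9. The causes were not tested. With 1 library left in a group, that library is assumed to vary like the other groups.

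For the CG mutant comparison DESeq2 called 1 gene of the family, where it called 1.88% of all genes. Leaving out a library gave a median of -0.06 to 0.02. The CT mutant median was 0.0057 when scaled by the summed ribosomal protein counts and -0.22 to -0.062 with a library left out. For the difference of the mutant effects, the median was 0.023 with total counts, -0.020 scaled by the summed counts, 0.036 with limma at either pseudocount, and 0.025 to 0.19 with a library left out, with 0 to 1 called.

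Between wild types, 31 genes were called with total counts (median 0.30), 5 scaled by the summed counts (median 0.036), 16 and 17 with limma on log2(FPKM + 1) and log2(FPKM + 0.1) (median 0.32 each), and 2 to 11 with a library left out (median 0.11 to 0.26). Between mutants, 26 were called with total counts (median 0.26), 15 with limma at either pseudocount (median 0.27), and 1 to 6 with a library left out (median -0.02 to 0.10). Of all genes, 34% were called between wild types with total counts, 30.8% scaled by the summed counts, and 33.5% and 33.4% with the 2 limma settings. Between mutants the shares were 39.6% with total counts and 38.6% and 39.1% with limma. When the left-out library belonged to a compared group, the share of all genes called was below that of the main fit. This held between wild types and between mutants. The numbers of family genes called with a library left out therefore cannot be compared directly with those of the main fit. The share of ribosomal protein counts, CT minus CG, was 0.576 percentage points, 2.20 as a share of FPKM, and 0.437 to 0.666 with a library left out.

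With copies summed, values turned to -0.078 for Rpl29 and -0.038 for Rps6 in the CT mutant comparison, and for Rpl34 to 0.11 in the difference of effects and 0.16 between wild types. With a library left out, Rpl34 ranged from -2.99 to 0.21 in the CG mutant comparison, -2.83 to 0.38 in the difference and -3.07 to 0.13 between wild types. In the CT mutant comparison the ranges were -0.028 to 0.21 for Rpl22, -0.026 to 0.29 for Rpl29 and -0.53 to 0.50 for Rps6. In the difference they were -0.74 to 0.29 for Rps6 and -0.24 to 0.054 for Rps15a.

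Deviations of same-numbered libraries had a correlation of 0.25 between CT mutants and CT wild types and -0.09 between CG mutants and CG wild types. Across the lines the correlations ran from -0.08 to 0.02. The labels do not say that the numbers pair libraries, so the main fit does not pair them. Whether they pair in the CT line was not settled. With the replicate block no gene was called in either mutant comparison or in the difference, 9 were called between wild types and 5 between mutants, with medians of -0.02, -0.14, 0.11, 0.18 and 0.05. In that fit 31% of all genes were called between wild types and 33.5% between mutants. Without a filter on low counts the medians were -0.02, -0.15, 0.12, 0.18 and 0.05 in the same order. Fits on the compared groups alone give no difference of effects.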
